A study of Mus musculus with 18 samples.

Results

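Endothelial cells line every blood vessel, and 10 genes that mark them by their junctions, surface receptors and stored protein were followed across 4 groups of mouse muscle. The genes were Pecam1, Cdh5, Cldn5, Tie1, Tek, Kdr, Flt1, Emcn, Vwf and Eng. They were listed by name, and all 10 were found among the 20922 genes of the table, of which 20643 carried a symbol. All 10 were also among the 12262 genes tested, which reached a mean of 10 normalized counts across the 18 libraries.

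In a vessel wall, endothelial cells are held together by adherens junctions built on VE-cadherin (Cdh5), by tight junctions built on claudins (Cldn5) and by the adhesion molecule PECAM-1 (Pecam1). Vascular endothelial growth factors act on these cells through VEGFR2 (Kdr), the main signalling receptor, while VEGFR1 (Flt1) binds the same ligand tightly and can act as a decoy. Angiopoietins act through TIE2 (Tek), with TIE1 (Tie1) as its partner receptor, and endoglin (Eng) is a co-receptor for ligands of the bone morphogenetic protein and TGF-beta family. Endomucin (Emcn) is a surface sialomucin of capillary and venous endothelium, and von Willebrand factor (Vwf) is the clotting protein that these cells store and release. In skeletal muscle most endothelial cells lie in the capillaries between the fibres.

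RNA came from the tibialis anterior, a muscle at the front of the lower hindlimb, of mice whose femoral artery had been tied in 1 hindlimb to model peripheral artery disease. Muscle was taken at day 36 after surgery from the ligated limb and from the intact limb of the other side. The groups were BKO ligated (4 libraries), BKO intact (5), WT ligated (4) and WT intact (5). BKO mice carried floxed Bmal1 alleles and an ACTA-rtTA-TRE-Cre transgene, an inducible Cre recombinase that the labels describe as deleting in skeletal muscle. Doxycycline given by gavage on 3 days, a week before surgery, was used to delete Bmal1, the activator of the circadian clock. WT controls carried the same floxed alleles, and the treatment protocol is given for all samples alike. The labels describe no deletion in endothelial cells. The labels write the Cre genotype as +/+ for controls and -/- for knockouts, so each genotype direction rests on the group names. The sources used here do not give the animals' age, the time of day or whether animals were pooled.

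Bmal1 (listed as Arntl) had normalized counts of 82.0, 63.8, 69.5 and 64.7 in BKO ligated libraries and 46.2, 49.5, 50.2, 61.1 and 42.4 in BKO intact libraries. It had 17.0, 12.2, 18.3 and 17.3 in WT ligated libraries and 41.3, 66.3, 47.3, 68.4 and 58.2 in WT intact libraries. In ligated limbs Bmal1 was higher in every BKO library than in every WT library, and in intact limbs the genotypes overlapped. Total reads of the gene cannot check the labels, because the exons not deleted are still counted and the sources used here do not name the deleted ones. Dbp, a gene switched on by BMAL1, had 205 ± 24.6 in BKO intact against 721 ± 84.8 in WT intact libraries, and 274 ± 56.0 in BKO ligated against 751 ± 85.2 in WT ligated libraries (SD, n = 5 intact and 4 ligated). Dbp was lower in every BKO library than in every WT library of the same limb.

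The libraries held 14.1 to 25.6 M reads (M for mega) assigned to genes. The mitochondrial ribosomal RNA mt-Rnr2 took 40.9 to 55.5% of the reads in BKO ligated, 33.6 to 36.1% in BKO intact, 38.1 to 45.3% in WT ligated and 31.9 to 34.3% in WT intact libraries. It was highest in BKO ligated libraries 4 and 5, and values without both are given beside results that change with them. Of the fibre genes that define the labelled tissue, the skeletal actin gene Acta1 averaged 101222 normalized counts in BKO ligated and 116553 in WT intact libraries. Summed over 12 listed fibre genes, normalized counts averaged 1.19e+06 in BKO ligated and 1.41e+06 in BKO intact libraries. In WT mice that sum averaged 1.05e+06 in ligated and 1.43e+06 in intact libraries. In bulk muscle, fewer cells of a type and less RNA per cell cannot be told apart.

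Promoter sequences, from 250 bases before to 50 bases after the start site, were found in the RefSeq table (GRCm38.p6, the same build as mm10) for 7 of the 10 genes: Cldn5, Tie1, Tek, Kdr, Flt1, Emcn and Eng. Pecam1, Cdh5 and Vwf were not in it. Those of 4 genes follow, 5' to 3' on the gene's own strand: Cldn5 and Tie1, which had the largest changes with ligation, and Kdr and Flt1, both VEGF receptors, of which Kdr changed and Flt1 did not pass the test. Capitals mark GGAA, the core of sites for ETS factors, or TTCC, the same motif on the opposite strand.
Cldn5 (chr16:18776597-18776896, plus strand): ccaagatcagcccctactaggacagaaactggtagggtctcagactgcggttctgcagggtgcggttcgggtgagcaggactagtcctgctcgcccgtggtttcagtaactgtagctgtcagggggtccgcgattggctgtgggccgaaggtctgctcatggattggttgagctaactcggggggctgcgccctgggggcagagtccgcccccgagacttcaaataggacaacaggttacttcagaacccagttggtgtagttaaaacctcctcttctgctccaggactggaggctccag
Tie1 (chr4:118489800-118490099, minus strand): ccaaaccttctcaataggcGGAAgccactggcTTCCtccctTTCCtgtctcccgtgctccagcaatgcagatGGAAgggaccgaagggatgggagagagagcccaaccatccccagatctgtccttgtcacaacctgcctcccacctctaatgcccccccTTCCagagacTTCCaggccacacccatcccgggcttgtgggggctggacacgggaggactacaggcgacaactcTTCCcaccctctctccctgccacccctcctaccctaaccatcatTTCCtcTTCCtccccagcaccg
Kdr (chr5:75978406-75978705, minus strand): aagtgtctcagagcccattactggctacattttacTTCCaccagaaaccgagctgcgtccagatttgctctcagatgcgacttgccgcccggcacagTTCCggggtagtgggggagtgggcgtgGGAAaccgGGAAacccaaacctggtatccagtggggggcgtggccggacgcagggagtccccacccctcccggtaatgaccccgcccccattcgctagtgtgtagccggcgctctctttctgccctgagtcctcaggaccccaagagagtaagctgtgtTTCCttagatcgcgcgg
Flt1 (chr5:147725962-147726261, minus strand): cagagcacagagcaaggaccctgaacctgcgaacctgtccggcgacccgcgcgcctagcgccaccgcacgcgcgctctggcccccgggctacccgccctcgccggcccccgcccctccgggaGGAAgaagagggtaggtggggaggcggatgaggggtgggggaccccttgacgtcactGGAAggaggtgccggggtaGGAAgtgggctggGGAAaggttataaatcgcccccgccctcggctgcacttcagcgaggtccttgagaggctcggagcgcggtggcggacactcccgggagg

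GGAA occurred 9 times in the Tie1 window, 6 in Emcn, 5 in Kdr, 4 in Flt1, 4 in Eng, 2 in Tek and 0 in Cldn5, counting both strands. It was in 96.0% of all 32851 promoters of this length, with a median of 3 matches, so the Tie1 window held more than most and the Cldn5 window none. CACGTG, the E-box bound by BMAL1 with CLOCK, was in 0 of the 7 windows and in 7.15% of all promoters. TATAAA was in the Flt1 window alone of the 7, at position -31, and in 13.6% of all promoters. The longer ETS motif CCGGAAGT (which contains GGAA; 3.89% of promoters) and the forkhead motif TGTTTAC (3.65%) were in 0 of the 7. These are matches of letters in 300 bases, not measured binding sites.

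Most of these genes had higher normalized counts in ligated than in intact muscle, in both genotypes. In BKO mice 8 of the 10 genes rose (limma, Benjamini-Hochberg adjusted p under 0.05 over 12262 genes) and none fell. The genes that rose were Pecam1, Cdh5, Cldn5, Tie1, Tek, Kdr, Emcn and Eng. In WT mice 7 of the 10 rose and none fell, the same genes without Emcn. Flt1 and Vwf passed the test in neither genotype. Without BKO ligated libraries 4 and 5, those highest in mt-Rnr2, 5 of the 10 rose in BKO: Pecam1, Cdh5, Cldn5, Tie1 and Tek. Calls over all genes fell as well in that setting: 1810 genes were called higher in BKO, against 2713 with all 18 libraries. With all libraries, 47.2% of all tested genes were called in either direction and 22.1% were called higher in BKO, against 39.8% and 18.7% in WT. The median log2 fold change of the 10 genes was 0.69 in BKO and 0.55 in WT, where the median of all tested genes was -0.00357 in BKO and -0.00251 in WT. Values of ligated and intact libraries did not overlap for 7 of the 10 genes in BKO (16.0% of all genes were higher without overlap) and for 4 of the 10 in WT (14.7%). Summed over the 10 genes, normalized counts were 5507 ± 773 in BKO ligated against 3373 ± 318 in BKO intact, and 4989 ± 763 in WT ligated against 3193 ± 235 in WT intact libraries (SD, n = 4 ligated and 5 intact).

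**Figure D1:**
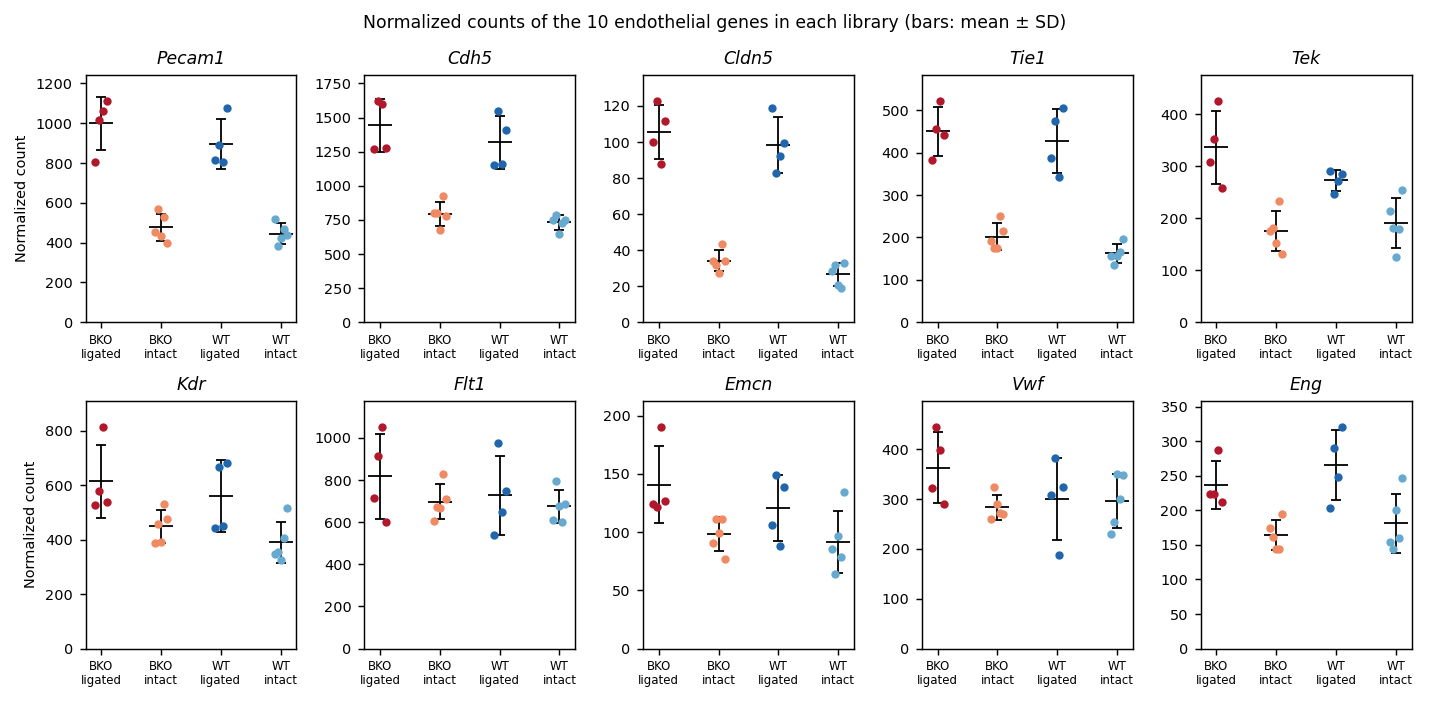
Normalized counts (y axis, from 0, not corrected for gene length) of each of the 10 genes in BKO ligated, BKO intact, WT ligated and WT intact libraries (x axis); points are libraries, and bars the mean and SD of 4 ligated or 5 intact libraries. Pecam1, Cdh5, Cldn5 and Tie1 show ligated libraries above all intact ones in both genotypes, while the groups of Flt1 and Vwf overlap.

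The junction genes Pecam1, Cdh5 and Cldn5 rose in both genotypes. Pecam1 (ENSMUSG00000020717, chr11:106654217-106750628, minus strand, mm10), which encodes an adhesion molecule also carried by platelets and leukocytes, had 808, 1017, 1061 and 1111 normalized counts in BKO ligated libraries and 455, 568, 434, 527 and 397 in BKO intact libraries. In WT mice it had 817, 888, 804 and 1075 in ligated and 519, 384, 421, 468 and 438 in intact libraries. Every ligated library lay above every intact one. Pecam1 rose by a log2 fold change of 1.07 ± 0.12 (SE) in BKO, a 2.10-fold difference (limma adjusted p = 5.89e-07), and by 1.00 ± 0.12 in WT, 2.004-fold (limma adjusted p = 1.46e-06).

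Cdh5 (ENSMUSG00000031871, chr8:104101625-104144511, plus strand), the cadherin of endothelial adherens junctions, had 1272, 1621, 1597 and 1279.8 normalized counts in BKO ligated and 798, 799, 675, 923 and 776 in BKO intact libraries. In WT mice the values were 1150.3, 1549, 1163 and 1409 in ligated and 752, 789, 645, 724 and 753 in intact libraries. The ligated and intact libraries were again apart in both genotypes. The log2 fold change of Cdh5 was 0.86 ± 0.11 in BKO (limma adjusted p = 2.00e-06) and 0.84 ± 0.11 in WT (limma adjusted p = 3.10e-06), or 1.81-fold in BKO and 1.79-fold in WT.

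Cldn5 (ENSMUSG00000041378, chr16:18776847-18778262, plus strand), the endothelial tight junction claudin best known from the blood-brain barrier, is a gene of 1 exon with a low count here. It had 99.9, 123, 87.8 and 112 normalized counts in BKO ligated and 33.8, 31.6, 27.6, 43.5 and 33.9 in BKO intact libraries. WT mice had 119, 82.7, 92.3 and 99.6 in ligated and 28.4, 32.0, 20.7, 19.3 and 33.1 in intact libraries. The lowest ligated value was more than the highest intact value in each genotype. Cldn5 rose 3.05-fold in BKO (95% interval 2.34 to 3.96, log2 fold change 1.61 ± 0.18, limma adjusted p = 6.77e-07). It rose 3.64-fold in WT (95% interval 2.80 to 4.74, log2 fold change 1.86 ± 0.18, limma adjusted p = 1.11e-07). This was the largest fold change among the 10 genes in each genotype, and it rests on 412 and 188 reads summed over the BKO ligated and BKO intact libraries, and on 435 and 123 over the WT ligated and WT intact libraries.

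Of the genes for TIE1 and TIE2, Tie1 (ENSMUSG00000033191, chr4:118471191-118490061, minus strand), which encodes the partner receptor of TIE2, came next. Tie1 had 383, 455, 522 and 442 normalized counts in BKO ligated and 192, 175, 176, 251 and 215 in BKO intact libraries. It had 386, 476, 343 and 506 in WT ligated and 156, 136, 156, 167 and 197 in WT intact libraries. No intact library of either genotype reached a ligated one. Tie1 rose 2.23-fold in BKO (log2 fold change 1.16 ± 0.14, limma adjusted p = 9.71e-07) and 2.61-fold in WT (log2 fold change 1.39 ± 0.14, limma adjusted p = 1.10e-07). Its promoter, printed above, is the one with 9 GGAA matches.

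Tek (ENSMUSG00000006386, chr4:94739289-94874976, plus strand), which encodes the angiopoietin receptor TIE2, had 308, 352, 425 and 258 normalized counts in BKO ligated and 176, 181, 153, 234 and 131 in BKO intact libraries. In WT mice it had 291, 245, 272 and 284 in ligated and 214, 181, 126, 178 and 255 in intact libraries. The groups were apart in BKO, while in WT intact library 6 lay within the range of the ligated libraries. Tek rose 1.92-fold in BKO (log2 fold change 0.94 ± 0.18, limma adjusted p = 2.33e-04) and 1.46-fold in WT (log2 fold change 0.55 ± 0.18, limma adjusted p = 0.0192). Without WT intact library 4, the lowest of its group, the WT change was 0.41 and no longer passed (limma adjusted p = 0.0599).

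Both VEGF receptor genes lie on chromosome 5. Kdr (ENSMUSG00000062960, chr5:75932827-75978458, minus strand), the main signalling receptor for VEGF-A, had 529, 579, 813 and 537 normalized counts in BKO ligated and 387, 459, 389.9, 532 and 477 in BKO intact libraries. The WT values were 445, 669, 449 and 681 in ligated and 348, 355, 326, 405 and 516 in intact libraries. The groups overlapped in each genotype, and WT ligated libraries split into a low pair (2 and 5) and a high pair (4 and 6). Kdr rose 1.36-fold in BKO (log2 fold change 0.44 ± 0.16, limma adjusted p = 0.0302) and 1.43-fold in WT (log2 fold change 0.51 ± 0.16, limma adjusted p = 0.0155). Its BKO call ended without BKO ligated library 5 (limma adjusted p = 0.144), BKO intact library 1 (0.0715) or BKO intact library 3 (0.0708), and its WT call without WT ligated library 4 (0.0651) or 6 (0.0696). The BKO change of Kdr was 0.26 without BKO ligated libraries 4 and 5 (limma adjusted p = 0.314).

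Flt1 (ENSMUSG00000029648, chr5:147561604-147726011, minus strand), the VEGF receptor that also yields a soluble form, had 713, 912, 1049.9 and 599 normalized counts in BKO ligated and 606, 674, 668, 828.8 and 708 in BKO intact libraries. In WT mice the values were 538, 978, 649 and 746 in ligated and 609, 796, 679, 603 and 685 in intact libraries. Ligated libraries lay both above and below the intact ones in each genotype. The log2 fold change was 0.21 ± 0.16 in BKO (95% interval -0.12 to 0.53, limma adjusted p = 0.298) and 0.08 ± 0.16 in WT (95% interval -0.25 to 0.41, limma adjusted p = 0.712). A change as large as that of Pecam1, Cdh5, Cldn5 or Tie1 lay outside those intervals. Without BKO ligated libraries 4 and 5 the BKO value was -0.0859, and without WT ligated library 4 the WT value was -0.0716. The counts are per gene, so soluble and membrane forms cannot be told apart.

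Emcn (ENSMUSG00000054690, chr3:137341067-137432185, plus strand), the sialomucin of capillary and venous endothelium, had 124, 121, 190.0 and 127 normalized counts in BKO ligated and 90.7, 112, 99.4, 111 and 77.2 in BKO intact libraries. WT muscle had 106, 149, 87.9 and 138 in ligated and 85.2, 64.0, 96.6, 79.0 and 134 in intact libraries. BKO groups did not overlap (lowest ligated value 121, highest intact value 112) and WT groups did. Emcn rose 1.42-fold in BKO (log2 fold change 0.50 ± 0.20, limma adjusted p = 0.0423), and in WT its change of 0.40 ± 0.20 did not pass (limma adjusted p = 0.115). The BKO call ended without BKO ligated library 5, which was far above the others (log2 fold change 0.35, limma adjusted p = 0.175), and without BKO intact library 1 (0.0761), 3 (0.0598) or 5 (0.1002). It also ended with no filter on low values (0.0598). In WT, Emcn passed without WT intact library 6 (0.0261) or WT ligated library 5 (0.0457). Without BKO ligated libraries 4 and 5 the BKO change was 0.36 (limma adjusted p = 0.260).

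Eng (ENSMUSG00000026814, chr2:32646595-32682669, plus strand), the TGF-beta family co-receptor endoglin, had 224, 223, 288 and 212 normalized counts in BKO ligated and 174, 162, 144, 145 and 195 in BKO intact libraries. In WT mice it had 204, 290.2, 249 and 320.3 in ligated and 155, 144, 200.05, 159.9 and 247 in intact libraries. The groups were apart in BKO and overlapped in WT. Eng rose 1.44-fold in BKO (log2 fold change 0.53 ± 0.16, limma adjusted p = 0.00903) and 1.47-fold in WT (log2 fold change 0.56 ± 0.16, limma adjusted p = 0.00726). Without BKO ligated libraries 4 and 5 its BKO change was 0.42 and did not pass (limma adjusted p = 0.109). The exons of Eng share 61 bases, 1.51% of its exon length, with Fpgs on the opposite strand, so reads there are uncertain. No other gene of the 10 shares exon bases with a neighbour.

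Vwf (ENSMUSG00000001930, chr6:125546774-125686679, plus strand), the stored clotting protein, did not pass the test in either genotype. It had 322, 444, 398 and 290.0 normalized counts in BKO ligated and 261, 324, 290.4, 273 and 269.6 in BKO intact libraries. In WT mice it had 308, 382, 187 and 325 in ligated and 229.7, 255, 351, 301 and 348 in intact libraries, so that 1 ligated library lay below all intact ones and 1 above. The log2 fold change was 0.34 ± 0.17 in BKO (95% interval -0.02 to 0.70, limma adjusted p = 0.112) and -0.01 ± 0.17 in WT (95% interval -0.37 to 0.35, limma adjusted p = 0.976). The sign of the WT value was positive under TMM scaling and in edgeR and DESeq2. The BKO change passed without WT ligated library 5, which is not in that comparison but adds to the shared spread (limma adjusted p = 0.0490).

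**Figure D2:**
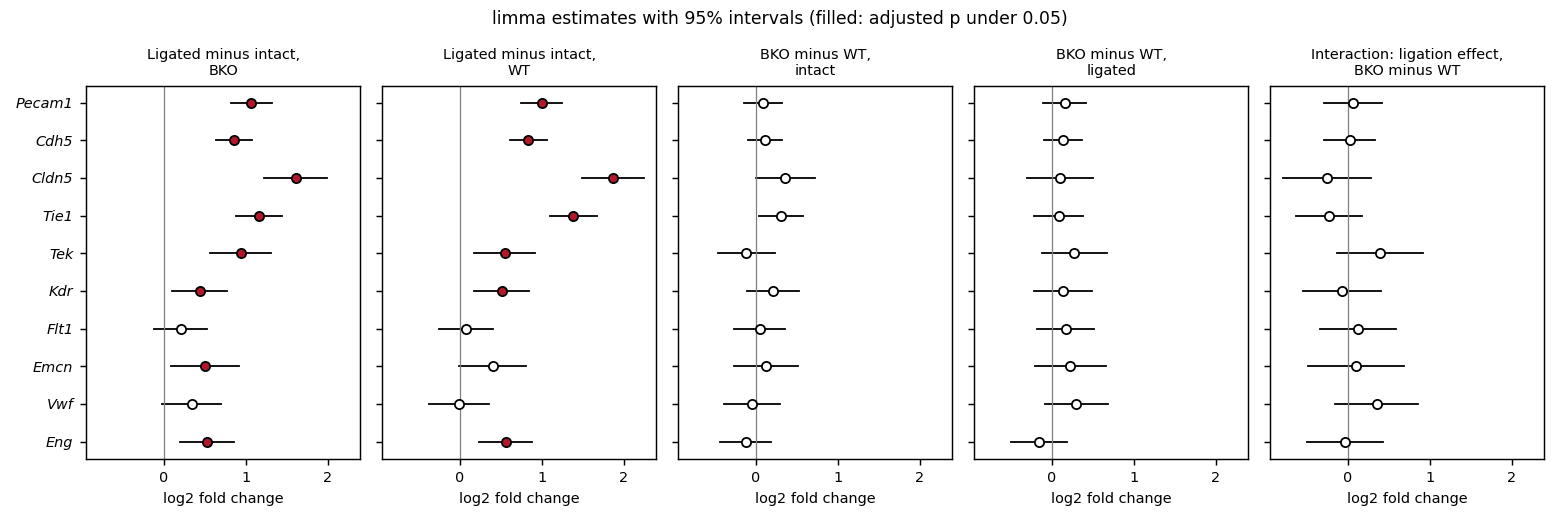
log2 fold changes (x axis) of the 10 genes (rows) with 95% intervals from limma for 5 comparisons; filled points have an adjusted p under 0.05. Points for ligated against intact limbs lie right of 0 for 8 filled genes in BKO and 7 in WT, and no point is filled in the genotype comparisons or the interaction.

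Ratios of genes within a library, which do not depend on scaling between libraries, set partner genes side by side. The log2 ratio of Vwf to Pecam1 was -1.32, -1.19, -1.41 and -1.93 in BKO ligated and -0.80, -0.81, -0.58, -0.95 and -0.56 in BKO intact libraries. It was -1.40, -1.21, -2.10 and -1.72 in WT ligated and -1.17, -0.59, -0.26, -0.64 and -0.33 in WT intact libraries. All ligated libraries had a lower ratio than all intact libraries of their genotype, which means less Vwf per Pecam1. The difference of means was -0.73 (exact permutation test, two-sided p = 0.00794, adjusted p = 0.0635) in BKO and -1.01 (exact permutation test, two-sided p = 0.0159, adjusted p = 0.0635) in WT. The smallest p this test can give with 4 and 5 libraries is 0.00794, and p-values were adjusted over 12 ratio tests, of which none passed after adjustment.

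The log2 ratio of Tie1 to Tek, which encode the partner receptors TIE1 and TIE2, was 0.31, 0.37, 0.30 and 0.77 in BKO ligated and 0.12, -0.05, 0.21, 0.10 and 0.71 in BKO intact libraries. It was 0.41, 0.95, 0.34 and 0.83 in WT ligated and -0.45, -0.41, 0.30, -0.10 and -0.37 in WT intact libraries. The ligated and intact libraries were apart in WT and overlapped in BKO. The difference was 0.22 (exact permutation test, two-sided p = 0.278, adjusted p = 0.381) in BKO and 0.84 (exact permutation test, two-sided p = 0.0159, adjusted p = 0.0635) in WT. BKO minus WT was -0.19 (exact permutation test, two-sided p = 0.200, adjusted p = 0.343) in ligated limbs, where the smallest p for 4 and 4 libraries is 0.0286, and 0.42 (exact permutation test, two-sided p = 0.0635, adjusted p = 0.127) in intact limbs. The difference between the genotypes' ligation effects on this ratio was not tested.

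The log2 ratio of Flt1 to Kdr, the decoy over the signalling VEGF receptor, averaged 0.40 ± 0.21 in BKO ligated and 0.64 ± 0.09 in BKO intact libraries (SD, n = 4 and 5). It averaged 0.37 ± 0.20 in WT ligated and 0.80 ± 0.32 in WT intact libraries. The groups overlapped in each genotype. The difference was -0.23 (exact permutation test, two-sided p = 0.0476, adjusted p = 0.127) in BKO and -0.43 (exact permutation test, two-sided p = 0.0635, adjusted p = 0.127) in WT.

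**Figure D3:**
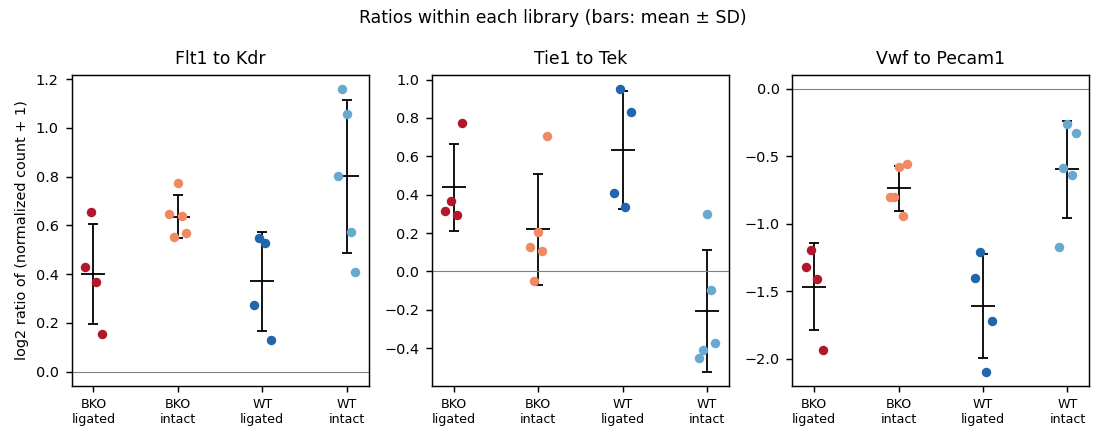
log2 ratios of (normalized count + 1) within each library (y axis) for Flt1 to Kdr, Tie1 to Tek and Vwf to Pecam1 in the 4 groups (x axis); points are libraries, bars the mean and SD, n = 4 ligated and 5 intact. The Vwf to Pecam1 ratio lies lower in all ligated than in all intact libraries of each genotype.

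Levels were compared between genes as normalized counts per kilobase of exon, using the union of exons of the GENCODE basic transcripts. The order was headed by Cdh5, Pecam1 and Kdr in all 4 groups. Cdh5 had 361 ± 48.2 per kilobase in BKO ligated, 199 ± 22.0 in BKO intact, 329.9 ± 48.7 in WT ligated and 183 ± 13.5 in WT intact libraries (SD, n = 4 ligated and 5 intact). Pecam1 had 242 ± 32.3 in BKO ligated, 115 ± 16.9 in BKO intact, 217 ± 30.3 in WT ligated and 108 ± 12.3 in WT intact libraries. Each gap from Cdh5 to Pecam1 and from Pecam1 to Kdr was larger than the sum of both SDs.

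Cldn5 was the lowest of the 10 per kilobase in intact limbs, at 24.1 ± 4.15 in BKO and 18.8 ± 4.51 in WT, and the sixth in ligated limbs, at 74.5 ± 10.6 in BKO and 69.5 ± 10.9 in WT. Vwf was the lowest in ligated limbs, at 37.2 ± 7.20 per kilobase in BKO and 30.7 ± 8.39 in WT, and the ninth in intact limbs, at 29.0 ± 2.59 in BKO and 30.3 ± 5.57 in WT. Tie1 was the fourth in ligated limbs, at 99.0 ± 12.5 in BKO and 94.0 ± 16.7 in WT, but the sixth in BKO intact limbs, at 44.4 ± 7.03, and the seventh in WT intact limbs, at 35.7 ± 4.87. Flt1 had 74.6 ± 18.4 per kilobase in BKO ligated and 63.6 ± 7.51 in BKO intact limbs, and 66.4 ± 17.1 in WT ligated and 61.5 ± 7.11 in WT intact limbs. From Kdr, the third, down to Vwf, the lowest, every gap between neighbours in ligated limbs was within the sum of their SDs. In intact limbs the exceptions to that were Flt1 over Eng in BKO and Vwf over Cldn5 in WT. A length taken from all annotated exons of an isoform-rich gene can set its level per kilobase too low.

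As a share of the summed normalized counts of the 10 genes, Flt1 made up 14.7% ± 1.87 in BKO ligated against 20.7% ± 1.32 in BKO intact libraries, and 14.5% ± 2.10 in WT ligated against 21.2% ± 2.71 in WT intact libraries (SD). Pecam1 made up 18.3% ± 2.75 in BKO ligated against 14.1% ± 1.51 in BKO intact, and 18.1% ± 1.69 in WT ligated against 14.0% ± 1.96 in WT intact libraries. The share of Flt1 was thus lower and that of Pecam1 higher in ligated limbs. A share of a fixed sum falls for 1 gene when others rise, so these values describe the make-up of the set and are not a separate result.

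The genotype comparisons ask whether deletion of the muscle clock gene goes with other levels of these vessel genes. Between genotypes none of the 10 genes passed the test, in intact or in ligated limbs (limma, 0 of 10 each). In intact limbs 18.3% of all genes were called (9.75% lower in BKO) and in ligated limbs 8.84% (4.68% lower in BKO). In intact limbs 2 of the 10 genes had an unadjusted p under 0.05, Cldn5 and Tie1, and in ligated limbs 0. Of the 12262 tested genes, 3716 had such a p in intact limbs and 2818 in ligated limbs, so the 10 genes do not stand out. edgeR and DESeq2 called 0 of the 10 in either limb. Median log2 differences of BKO minus WT were 0.10 in intact and 0.15 in ligated limbs. That direction in ligated limbs depends on the scaling: as a share of all reads, mt-Rnr2 included, the 10 genes together made up 0.0252% ± 0.00167 in BKO ligated against 0.0290% ± 0.00261 in WT ligated libraries, lower in BKO, and 0.0179% ± 0.00141 in BKO intact against 0.0165% ± 0.00113 in WT intact libraries (SD, n = 4 ligated and 5 intact). Ligated limbs had the higher share in both genotypes.

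Tie1 had a mean of 202 ± 32.0 normalized counts in BKO intact against 162 ± 22.2 in WT intact libraries (SD, n = 5 each). The log2 difference was 0.31 ± 0.13 (SE) with a 95% interval of 0.04 to 0.58 (limma adjusted p = 0.101). Without WT intact library 6, the highest of its group, it was 0.38 and passed (limma adjusted p = 0.0481). Cldn5 had 34.1 ± 5.87 in BKO intact against 26.7 ± 6.39 in WT intact libraries, a log2 difference of 0.36 ± 0.17 with a 95% interval of 0.00 to 0.72 (limma adjusted p = 0.164). The BKO and WT libraries overlapped for both genes. In ligated limbs Tie1 had 450.4 ± 57.1 in BKO against 428 ± 76.2 in WT libraries (SD, n = 4 each), with a difference of 0.08 ± 0.14, and Cldn5 had 106 ± 15.0 in BKO against 98.4 ± 15.4 in WT libraries, with a difference of 0.10 ± 0.19.

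The 95% interval of the BKO minus WT log2 difference was narrowest for Cdh5, -0.10 to 0.32 in intact and -0.10 to 0.37 in ligated limbs, so a change as large as that with ligation lay outside it. For Emcn the interval in ligated limbs was -0.21 to 0.66, and for Vwf it was -0.08 to 0.68. Vwf had 364 ± 70.4 normalized counts in BKO ligated against 301 ± 82.1 in WT ligated libraries (limma adjusted p = 0.351). Tek had 336 ± 70.8 in BKO ligated against 273 ± 20.0 in WT ligated libraries (limma adjusted p = 0.417). Within groups the coefficient of variation of the 10 genes was 7.33% to 28.9%, with a median of 15.8%.

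The interaction, which sets the ligation effect of BKO against that of WT (BKO minus WT), was called for 0 of the 10 genes by limma, edgeR and DESeq2, where 6.01% of all genes were called by limma. None of the 10 had an unadjusted p under 0.05, where 2658 of the 12262 tested genes did. The log2 values lay between -0.26 for Cldn5 (95% interval -0.79 to 0.28) and 0.39 for Tek (95% interval -0.14 to 0.92). Vwf had an interaction of 0.35 ± 0.24 (SE) and Tie1 of -0.23 ± 0.19. Emcn passed the ligation test in BKO and not in WT, but its interaction was 0.10 ± 0.28 with a 95% interval of -0.48 to 0.68 (limma adjusted p = 0.876), so a difference between the genotypes was not shown.

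Within groups the 10 genes mostly moved together from library to library. After each group's mean was subtracted, the median Pearson r of the 45 pairs was 0.43 over 18 libraries, with a range of -0.18 to 0.86, and 41 of the 45 were above 0. The highest was that of Tie1 with Kdr. Cldn5 had the lowest mean r with the other genes, 0.05, and Kdr the highest, 0.57. The libraries farthest above their group's mean over the 10 genes were WT intact library 6, by 0.29 on the log2 scale, and BKO ligated library 5, by 0.23. The points share each library's depth and scaling, so these correlations are a description.

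Outside the 10, the genes with a mean of at least 50 normalized counts whose within-group pattern was most like the mean of the set included Gm12338, Pnpla3, Cd300lg, Actr3, mt-Cytb, Gimap8, Ttc14, Mmrn2 and Cd93, with Pearson r of 0.80 to 0.85 over 18 libraries. Cd93, a receptor of endothelial and myeloid cells, rose with ligation by 1.41 ± 0.11 in BKO and 1.56 ± 0.11 in WT (log2, SE; limma adjusted p = 7.65e-09 in BKO and 2.02e-09 in WT). Mmrn2, a CD93 ligand of the vessel matrix, rose by 0.77 ± 0.15 in BKO and 0.83 ± 0.15 in WT. Not all of the genes most like the set rose with ligation: Actr3 had 0.03 ± 0.11 in BKO and -0.01 ± 0.11 in WT, and the mitochondrial gene mt-Cytb fell by 0.74 in BKO and 1.24 in WT. They were picked for likeness from all genes above that level, so their r values are no test. Gm12338 is a predicted gene and its reads are uncertain in their split.

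Of 19 listed genes of other endothelial junction and adhesion proteins, 18 were tested. They include Cd34, which is also on the fibroblast list and rose by 0.75 in BKO and 0.79 in WT. In BKO 13 rose and 0 fell with ligation, and in WT 14 rose and 0 fell, with median log2 fold changes of 0.65 in BKO and 0.59 in WT. The number that rose in BKO was 9 without BKO ligated libraries 4 and 5. With all libraries, 22.1% of all tested genes were called higher in BKO and 18.7% in WT. Mcam, an adhesion molecule of endothelium and pericytes, rose by 1.07 ± 0.13 in BKO and 1.63 ± 0.13 in WT. Esam, an adhesion molecule of endothelial tight junctions, rose by 1.17 ± 0.12 in BKO and 1.24 ± 0.12 in WT. The junction scaffold Tjp1 (ZO-1) rose by 0.78 in BKO and 0.49 in WT, and the junction protein F11r (JAM-A) by 0.98 in BKO and 0.88 in WT. Plvap, the diaphragm protein of fenestrated and leaky capillaries, had 0.32 ± 0.13 in BKO and 0.06 ± 0.13 in WT and did not pass. Between genotypes 1 gene of the list was called: the junction gene Cgnl1 was higher in BKO intact than in WT intact limbs, by 0.83 ± 0.24 (limma adjusted p = 0.0171), and did not pass without WT intact library 4.

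Among 17 tested ligands, co-receptors and regulators of the receptors, the pattern was mixed. The 17 include Angptl4, an angiopoietin-like inhibitor of lipoprotein lipase, with log2 fold changes of -1.03 in BKO and 2.57 in WT, both called. Its BKO call ended without BKO intact library 5 or BKO ligated library 2. In BKO 7 rose and 2 fell with ligation, and in WT 8 rose and 4 fell, with median log2 fold changes of 0.22 in BKO and 0.55 in WT. In BKO 5 rose and 3 fell without BKO ligated libraries 4 and 5. The shares of all tested genes, with all libraries, were 22.1% higher and 25.1% lower in BKO, and 18.7% higher and 21.1% lower in WT. Ptprb, an endothelial phosphatase that restrains TIE2 signalling, rose by 1.04 ± 0.11 in BKO and 0.75 ± 0.11 in WT, and the VEGF co-receptor Nrp1 by 0.59 ± 0.09 in BKO and 0.83 ± 0.09 in WT. Angpt1, the activating TIE2 ligand, fell by 0.95 in BKO and 0.54 in WT on the log2 scale, while Angpt2, the ligand that can oppose it, rose by 0.58 in BKO and 0.70 in WT. Vegfa, the ligand of Kdr and Flt1, had 0.11 ± 0.13 in BKO, which did not pass, and fell by 0.36 ± 0.13 in WT, a call that 6 of the 9 WT libraries ended when left out (2, 5 and 6 of each limb). Vegfa was higher in BKO ligated than in WT ligated limbs, by 0.64 ± 0.14 (limma adjusted p = 0.00364). Acvrl1, the ALK1 receptor that works with endoglin, rose by 0.73 in BKO and 0.63 in WT. In BKO, Angpt2 (log2 fold change 0.33, limma adjusted p = 0.300) and Acvrl1 (log2 fold change 0.54, limma adjusted p = 0.124) did not pass without BKO ligated libraries 4 and 5. Leaving out BKO ligated library 4 alone ended both BKO calls, and library 5 that of Angpt2. The WT call of Acvrl1 ended without WT intact library 2, 3 or 6 or WT ligated library 4 or 6.

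Of the 18 tested transcription factors of endothelium, 14 rose in BKO and 7 in WT with ligation and none fell, with median log2 fold changes of 0.86 in BKO and 0.48 in WT. The difference between those counts was not tested. The BKO count was 8 without BKO ligated libraries 4 and 5, and without WT ligated library 4 the WT count was 3. With all libraries, 22.1% of all tested genes were called higher in BKO and 18.7% in WT. Ets1, an ETS factor, rose by 1.05 ± 0.12 in BKO and 0.90 ± 0.12 in WT, Sox17, a factor of arterial endothelium, by 1.04 ± 0.25 in BKO and 1.44 ± 0.25 in WT, and Erg, an ETS factor of all endothelium, by 0.50 ± 0.14 in BKO and 0.45 ± 0.14 in WT. Erg did not pass in BKO without BKO ligated libraries 4 and 5 (log2 fold change 0.23, limma adjusted p = 0.268), and without WT ligated library 4 it did not pass in WT. Klf2, a factor induced by blood flow, was the gene of the list with a called interaction, 0.93 ± 0.27 (limma adjusted p = 0.0475), which held without 6 of the 18 libraries in turn and ended without each of the other 12: WT intact 2, 3 and 4, BKO intact 1, 2, 3 and 4, WT ligated 5 and 6, and BKO ligated 2, 4 and 5. With BKO ligated libraries 4 and 5 both left out, the Klf2 interaction was 0.83 (limma adjusted p = 0.177). Klf2 was lower in BKO intact than in WT intact limbs, with a log2 difference of -1.01 ± 0.18 (limma adjusted p = 4.71e-04), under removal of each library too. The related Klf4 was lower as well, -0.66 ± 0.20 (limma adjusted p = 0.0230), but did not pass without WT intact library 3 or 4 or BKO intact library 1, 2 or 5.

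Genes of vessel types were called higher with ligation in differing numbers. The share of all tested genes called higher was 22.1% in BKO and 18.7% in WT. Of 13 tested arterial genes 12 rose in BKO and 12 in WT, with median log2 fold changes of 1.01 in BKO and 1.06 in WT. The arterial count in BKO was 11 without BKO ligated libraries 4 and 5. Among the genes that rose were the gap junction gene Gja5 (1.71 in BKO and 1.21 in WT), the Notch ligand Dll4 (1.24 in BKO and 1.19 in WT) and the guidance receptor Unc5b (1.49 in BKO and 1.32 in WT). Of 14 capillary genes, which include Kdr itself, 12 rose and 1 fell in BKO and 9 rose in WT. Counted among those that rose was Fabp4, which is also on the adipocyte list (1.24 in BKO and 1.53 in WT). The number that rose in BKO was 6 without BKO ligated libraries 4 and 5. The capillary lipid transfer gene Gpihbp1 rose by 0.64 in BKO and 1.11 in WT, and the fatty acid transporter Cd36, which muscle fibres and fat also express, fell by 0.45 in BKO.

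Of 10 tested venous genes, which include Vwf itself, 5 rose in BKO (also 5 without BKO ligated libraries 4 and 5) and 6 in WT. The shares of all tested genes called higher were 22.1% in BKO and 18.7% in WT. The apelin receptor Aplnr had the largest change of the venous list, 2.34 ± 0.19 in BKO and 2.24 ± 0.19 in WT, and its ligand Apln rose by 1.20 ± 0.26 in BKO and 2.11 ± 0.26 in WT. The venous regulator Nr2f2 had 0.09 in BKO and -0.26 in WT, and the stored adhesion molecule Selp, which shares its granules with Vwf, 0.10 in BKO and 0.15 in WT; neither passed. Between genotypes, in ligated limbs the arterial gene Efnb2 was higher in BKO by 0.45 ± 0.13 (limma adjusted p = 0.0343), which ended without WT ligated library 2, 5 or 6 or BKO ligated library 2, 4 or 5 (0.35 without both 4 and 5, limma adjusted p = 0.289). In those limbs and in intact limbs 0 of the 10 venous genes were called between genotypes by limma.

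**Figure D4:**
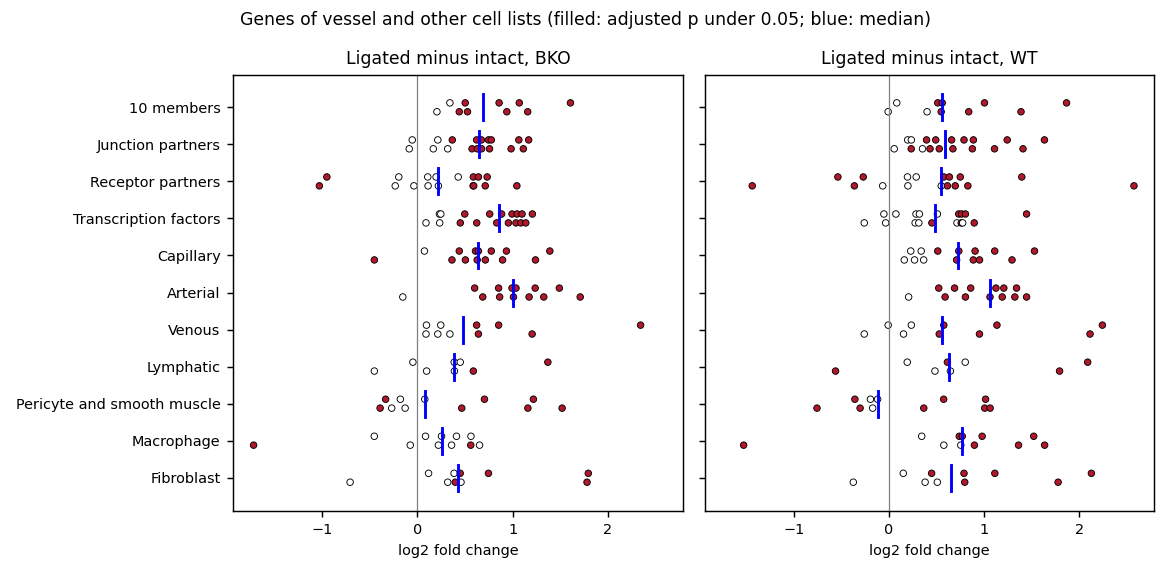
log2 fold changes with ligation (x axis) of each tested gene of 11 lists (rows) in BKO and in WT; filled points have an adjusted p under 0.05 and the blue line is the list's median. The 10 members, junction partners and arterial genes lie mostly right of 0 in both genotypes, while pericyte and smooth muscle genes lie on both sides.

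Markers of other cells moved with ligation too. Of all tested genes, 22.1% were called higher and 25.1% lower in BKO, and 18.7% higher and 21.1% lower in WT. Adipocyte genes rose, 9 of 10 in BKO and 10 of 10 in WT, with a summed count of 4277 to 8548 in BKO ligated against 2722 to 3300.2 in BKO intact libraries, and 8154 to 11389.7 in WT ligated against 2542 to 3286 in WT intact libraries. Plin4 (1652 to 3909 over 18 libraries) and Fabp4 (643 to 2278) weigh heavily in that sum. Single genes rose by more: Cfd 38.6-fold in BKO and 47.7-fold in WT, and Plin1 29.6-fold in BKO and 48.6-fold in WT. Lipe rose 2.32-fold in BKO and 5.17-fold in WT. Of 10 fibroblast genes 5 rose in BKO and 6 in WT, with a summed count of 11032 to 17336 in BKO ligated against 5185 to 6683 in BKO intact, and 14454 to 17937 in WT ligated against 5964 to 7417 in WT intact libraries. Without BKO ligated library 4 the BKO fibroblast count was 3. Macrophage and leukocyte genes, some of which belong to cells that also carry Pecam1, rose in 1 of 11 cases in BKO and 7 of 11 in WT, with 1 fall in each. Without BKO intact library 3 or BKO ligated library 4 or 6, 0 rose in BKO. The difference between the counts of 1 and 7 was not tested. Of these genes, Lyz2 (-0.96 ± 0.28, limma adjusted p = 0.0423) and Itgam (-2.09 ± 0.58, limma adjusted p = 0.0373) had a called interaction. Lyz2 held without 5 of the 18 libraries in turn and Itgam without 7, and neither passed without BKO ligated libraries 4 and 5. The summed count of the macrophage and leukocyte genes was 649.6 to 989 in BKO ligated against 447 to 970.0 in BKO intact, and 1126 to 1409 in WT ligated against 619.9 to 839 in WT intact libraries. Of 12 muscle fibre genes 6 fell in each genotype, and 2 rose in BKO and 1 in WT. The part of these cells in the changes of the 10 genes was not tested.

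Platelets carry Pecam1 and Vwf. Of the listed platelet genes, Gp9 was at 0 in 14 of 18 libraries and Gp1ba in 9 of 18, with highest values of 1.23 and 3.06 normalized counts. Ppbp and Itga2b were each at 0 in 1 of 18, with highest values of 7.71 for Ppbp and 18.1 for Itga2b. Pf4 was at 0 in 0 of 18 and had 6.13 to 30.5 normalized counts. The part of platelets in the values of Pecam1 and Vwf was not tested. Of the 10 listed platelet and red cell genes 6 were tested, of which 0 rose in BKO and 0 in WT, and Hba-a1 and Hbb-bs, near-identical globin copies with their neighbours, were called lower in BKO (Hba-a1 -0.60, Hbb-bs -0.44). The share of all tested genes called lower in BKO was 25.1%, so falls of 2 of 6 genes are near that share. With BKO ligated libraries 4 and 5 left out, the log2 fold change was -0.48 for Hba-a1 and -0.47 for Hbb-bs, and neither passed (limma adjusted p = 0.139 for Hba-a1 and 0.0613 for Hbb-bs). The pericyte and smooth muscle list, of cells that wrap the endothelium, had 5 of 11 genes called higher and 2 lower in BKO, and 5 higher and 3 lower in WT. Over all tested genes, 22.1% were called higher and 25.1% lower in BKO, and 18.7% higher and 21.1% lower in WT. Of the genes of the pericyte and smooth muscle list called higher, Pdgfrb rose by 1.22 in BKO and 1.01 in WT on the log2 scale. Cspg4 rose by 1.16 in BKO and 1.06 in WT, and Notch3 by 1.52 in BKO and 1.01 in WT. Rgs5 rose by 0.70 in BKO and 0.37 in WT, a WT call that ended without WT ligated library 4. Called lower were Abcc9 (-0.33 in BKO and -0.36 in WT), Acta2 in BKO (-0.39), and Des (-0.30) and Lmod1 (-0.76) in WT. The list had a median log2 fold change of 0.08 in BKO and -0.12 in WT. It had, without BKO ligated libraries 4 and 5, 4 called higher and 1 lower in BKO, as the channel gene Kcnj8 (0.31, limma adjusted p = 0.145) and the smooth muscle actin gene Acta2 (-0.24, limma adjusted p = 0.336) did not pass. The fall of Acta2 in BKO also ended without any 1 of 8 libraries: BKO ligated 4 and 5, BKO intact 3, 4 and 5, WT ligated 6, and WT intact 4 and 6.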

How the data were processed

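Total RNA of 18 muscles was sequenced with a stranded total RNA kit, per the labels. Trimmomatic 0.33, STAR 2.5.2, RSEM 1.3.3, DESeq2 without a version and the build mm10 appear, per the submitters' processing notes, with no role or order. The sources used here give neither the strand setting nor the annotation used for counting. The deposited table holds a signal for each gene, the authors' normalized count, without length correction. Dividing out a size factor for each library returned whole numbers for 100% of values (tolerance 0.001), and the whole numbers, counted or estimated, will be referred to as reads. The factor lay near 1 for BKO ligated library 2 and for WT intact library 6, where whole numbers are less telling.

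Genes with a mean of at least 10 (12262 genes) entered limma 3.58.1 as log2(normalized count + 1) (R 4.3.3): 4 group means, eBayes with trend, 5 comparisons, Benjamini-Hochberg adjustment over all tested genes, called at 0.05. This scale understates changes of low genes. The 3 ratios within libraries were compared in 4 pairs of groups by exact two-sided permutation tests. Alternatives used edgeR 4.0.16 and DESeq2 1.42.0 on recovered reads. The tests were checked on simulated data. Gene positions and exon lengths came from GENCODE on mm10, and promoters from RefSeq. The 10 genes and all gene lists were chosen with earlier results of these data known.

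Named genes were the 10, up to 4 of each other list with the smallest p with ligation, list genes called between genotypes or in the interaction, and the 10 most alike within groups, of which 1 is not reported here. Of lists of other cells, genes called between genotypes are given by name for pericytes and in part for macrophages. Plvap, Selp, Nr2f2, Erg, Dll4, Gja5, Angpt2, Acvrl1, Prox1, Gp9, Gp1ba, Ppbp, Itga2b, Pf4, Acta1 and Dbp were added after their values were seen, for their roles. Abcc9 and Des were also added after their values were seen, as genes of the pericyte and smooth muscle list called lower. The 32 pairs of libraries of 1 group had read counts further apart than sampling noise (chi-square of 7.35 to 138 for each degree of freedom), and none was merged. The labels do not say that each sample is a separate mouse or whether a number marks 1 mouse, so the p-values speak only of spread among these libraries, which may be technical.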

Additional observations from a re-analysis of the deposited data

Results flagged for a closer look

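Of 40 groups of values (10 genes in 4 groups) 2 held a library whose gap to the next, relative to the range of its group, was past Dixon's critical value; chance flags about 1 in 20. Both were BKO ligated library 5, the library with the highest mt-Rnr2 share. Emcn had 189.97 normalized counts there, against 121 to 127 in the other BKO ligated libraries. Eng had 288.0 there, against 212 to 224 in the other BKO ligated libraries.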

How the results depend on the processing

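The 5 comparisons were recomputed with pseudocounts of 0.5 and 5, no filter, a minimum mean of 50, a replicate block, TMM scaling, edgeR and DESeq2 on recovered reads, and without each of 18 libraries. Removal of BKO ligated libraries 4 and 5 was chosen after seeing the data. The 10 genes' counts of calls stayed at 8 (7 with no filter), 7, 0, 0 and 0 under every planned setting other than removal of a library, which gave 6 to 9 for ligation in BKO, 6 to 8 for ligation in WT and 0 to 1 for BKO against WT in intact limbs. Without BKO ligated libraries 4 and 5, 5 of the 10 were called with ligation in BKO, Kdr, Emcn and Eng being lost. Over all genes, calls with ligation in BKO fell from 5790 to 4050 in that setting. For BKO against WT in ligated limbs they fell from 1084 to 616, and for the interaction from 737 to 269. Fewer samples remain in these comparisons. DESeq2 called 1158 genes for the interaction, and removal of 1 library 402 to 1015, the lowest without WT ligated library 2 and the next, 461, without WT ligated library 5; the cause was not tested. edgeR called 5757 and 4899 genes for ligation in BKO and WT, 2285 and 1126 between genotypes in intact and ligated limbs, and 762 for the interaction.

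Signs changed only for values that did not pass. Vwf in WT ligation was 0.0185 under TMM, 0.0346 in edgeR and 0.0255 in DESeq2. Without BKO ligated libraries 4 and 5, log2 values were -0.0859 for Flt1 ligation in BKO; for BKO against WT in ligated limbs -0.0347 (Cdh5), -0.0401 (Tie1), -0.0430 (Kdr) and -0.12 (Flt1); and for the interaction -0.15 (Cdh5), -0.17 (Flt1) and -0.0356 (Emcn). Removal of 1 library gave ranges across 0 for ligation in WT of -0.0716 to 0.22 (Flt1) and -0.14 to 0.20 (Vwf), for BKO against WT in intact limbs of -0.0174 to 0.11 (Flt1) and -0.14 to 0.0153 (Vwf), for BKO against WT in ligated limbs of -0.0179 to 0.17 (Tie1) and -0.00311 to 0.24 (Kdr), and for the interaction of -0.0408 to 0.10 (Cdh5), -0.21 to 0.0307 (Kdr), -0.0101 to 0.28 (Flt1), -0.0506 to 0.22 (Emcn) and -0.15 to 0.0628 (Eng). Ratios were recomputed with both pseudocounts and without each library; none passed after adjustment, and 2 ratio differences for BKO against WT in ligated limbs had ranges across 0 on removal of 1 library: -0.0525 to 0.11 (Flt1 to Kdr) and -0.0192 to 0.30 (Vwf to Pecam1). Deviations of samples with the same number did not correlate (7 pairs, r -0.06 to 0.05; 33 others, -0.06 to 0.06), so the numbers were not taken to pair samples. The replicate block called 5857, 4990, 2255, 1084 and 812 genes in the 5 comparisons, and the same 8, 7, 0, 0 and 0 of the 10. The number of reads limits Cldn5 and Emcn most, and without molecular identifiers a read is not an independent molecule.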

Other observations

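In intact limbs, 5 of 11 tested pericyte and smooth muscle genes were lower in BKO than in WT muscle, where 9.75% of all tested genes were called lower. They were Notch3, a receptor of vascular smooth muscle (-0.50 ± 0.14 on the log2 scale, limma adjusted p = 0.0158), Pdgfrb and Cspg4, both pericyte surface proteins (Pdgfrb -0.37 ± 0.08, limma adjusted p = 0.00236, and Cspg4 -0.44 ± 0.10, limma adjusted p = 0.00466), the pericyte regulator Rgs5 (-0.39 ± 0.10, limma adjusted p = 0.0105) and Lmod1 (-0.79 ± 0.18, limma adjusted p = 0.00302). Notch3 did not pass without BKO intact library 2, and the other 4 passed without any 1 library. In ligated limbs 0 of the 11 were called by limma.

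Angptl4, an angiopoietin-like inhibitor of lipoprotein lipase, had the largest interaction of the receptor partner list, -3.60 ± 0.48 (limma adjusted p = 4.79e-04). It averaged 38.7 ± 19.3 normalized counts in BKO ligated and 79.7 ± 40.5 in BKO intact libraries, and 40.2 ± 10.9 in WT ligated and 5.89 ± 1.57 in WT intact libraries (SD, n = 4 ligated and 5 intact). Vegfd was lower in BKO intact than in WT intact limbs (-0.95 ± 0.33, limma adjusted p = 0.0473), as were the receptors Tgfbr2 (-0.42 ± 0.12), Tgfbr3 (-0.71 ± 0.11) and Bmpr2 (-0.26 ± 0.07), and Nrp1 was higher (0.28 ± 0.08). Vegfd passed without 6 of the 18 libraries in turn and not without the other 12, and Nrp1 not without WT intact library 3 or 4 or BKO intact library 4 or 5. In ligated limbs Tgfbr2 was also lower in BKO (-0.59 ± 0.13, limma adjusted p = 0.00493). Of the capillary genes, Cd36 was higher (0.46 ± 0.13) and Rgcc lower (-0.89 ± 0.17) in BKO intact than in WT intact limbs.

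Of 11 macrophage and leukocyte genes, 3 were lower in BKO ligated than in WT ligated limbs, where 4.68% of all tested genes were called lower: Csf1r, the receptor for colony stimulating factor 1 (-0.90 ± 0.21, limma adjusted p = 0.00974), C1qc, a complement subunit (-0.96 ± 0.23, limma adjusted p = 0.0112), and Lyz2, lysozyme (-0.77 ± 0.21, limma adjusted p = 0.0211). With only 2 BKO ligated libraries kept, without 4 and 5, the differences were -0.82 for Csf1r, -0.84 for C1qc and -0.74 for Lyz2, and none passed (limma adjusted p = 0.0873 for Csf1r, 0.124 for C1qc and 0.102 for Lyz2). With 1 library left out, Lyz2 did not pass without WT ligated library 2 or 5 or BKO ligated library 2 or 5.

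Of 8 lymphatic endothelial genes, 2 rose with ligation in BKO, Prox1 (1.37 ± 0.33) and Flt4 (0.59 ± 0.14). Of all tested genes 22.1% were called higher in BKO, so that count is near the share of all genes, and 18.7% in WT. Ccl21a (0.39 ± 0.48) and Mmrn1 (0.10 ± 0.37) did not pass in BKO, nor Prox1 (0.65 ± 0.33) in WT. In WT 3 rose, Ccl21a (2.09 ± 0.48), Mmrn1 (1.79 ± 0.37) and Flt4 (0.61 ± 0.14), and Tbx1 fell (-0.56 ± 0.12). Tbx1 was lower in BKO intact than in WT intact limbs (-0.45 ± 0.12), and 0 of the 8 had a called interaction by limma. Over 18 libraries Tbx1 had 140 to 300 normalized counts, against 4.74 to 100 for Ccl21a and 9.85 to 98.0 for Mmrn1. Bulk RNA does not show which cells the reads of the 8 genes came from.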
